A study of Mus musculus with 20 samples.

Results

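Ribosome biogenesis factors are the nucleolar and nuclear proteins that transcribe, trim and modify ribosomal RNA and fold it, with the ribosomal proteins, into the small and the large subunit. The list described here holds 41 such genes, given by symbol, out of 18193 named genes on 20 Affymetrix expression arrays of mouse tissue and sphere cultures. Each gene was read through the probe set with the highest mean log2(intensity + 16) over all arrays. A probe set that names the gene alone was found for 40 of the 41 members, and all 40 were among the 15132 genes tested. Mrto4 shares its probe set with other gene names and was not analysed here.

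The arrays fall into 7 groups by genotype and tissue. Wild-type mice of the 129+Ter/SvJcl background gave ganglia (n = 4) and neurospheres (n = 2). Mice homozygous for a MYCN transgene (MYCN Tg homozygote) gave ganglia (n = 2) and tumors (n = 4), and homozygous animals that also lacked Mdk, the gene for the growth factor midkine, gave tumors (MYCN Tg homozygote + Mdk KO, n = 2). Mice with the transgene in hemizygous state (MYCN Tg hemizygote) gave tumors (n = 4) and tumorspheres (n = 2), which, like neurospheres, are cell clusters grown in culture. All transgenic groups are of mixed 129+Ter/SvJcl background, so transgene and background cannot be told apart in a comparison with wild-type samples. The labels give no age, do not name the ganglion, the promoter of the transgene or the origin of the sphere cells, and do not say whether replicates are separate animals or cultures. The p-values below therefore rest only on how far these arrays lie apart, a spread that may be technical.

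In the nucleolus, RNA polymerase I transcribes the ribosomal RNA precursor, box C/D and box H/ACA small nucleolar ribonucleoproteins (snoRNPs) methylate and pseudouridylate it, and the small-subunit processome and a chain of large-subunit factors fold and cut it. MYC-family proteins, MYCN among them, bind E-box sequences such as CACGTG, and genes of ribosome production are among their known targets. MYCN is amplified in aggressive neuroblastoma, a childhood tumor of the sympathetic nervous system, and large nucleoli are a long-known feature of fast-growing tumor cells.

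All deposited arrays have the same mean after trimming of the extremes, so the values are levels relative to the rest of each sample's RNA. In bulk tissue, fewer cells of a type and less RNA per cell cannot be told apart. The samples differed in make-up: the summed intensity of 11 proliferation genes was 905 to 2554 in wild-type ganglia, 7518 to 11070 in homozygous ganglia, 14220 to 14550 in homozygous tumors, 14430 to 16410 in hemizygous tumors, 7564 to 7937 in neurospheres and 14210 to 14480 in tumorspheres. Summed fibroblast markers (8 genes) were 16840 to 20830 in wild-type ganglia against 2700 to 6783 over the tumors of both genotypes. Summed Schwann and satellite glia markers (8 genes) were 8962 to 10940 against 660 to 1298. In these lists Fbln1 (30.8 to 38.2 against 266 to 403) and Mbp (53.2 to 181 against 185 to 346) went the other way. Every other member of both lists was lower in all these tumors than in all wild-type ganglia. Sympathetic neuron markers (11 genes) summed to 22740 to 44720 in wild-type ganglia, 12330 to 13970 in homozygous tumors, 7535 to 9025 in hemizygous tumors. Within this list Chga went the other way, at 97.8 to 140.0 in wild-type ganglia and 223 to 908 over both tumor genotypes. So did Nefm in homozygous tumors, at 1930 to 3090 against 358 to 996 in wild-type ganglia. The sum was 11050 to 11130 in tumorspheres and 322.8 to 562.9 in neurospheres. The neurospheres instead carried Sox2 at 3780 and 3300 and Olig2 at 470.0 and 988, genes of neural stem cells and oligodendrocyte precursors that read at most 4.81 and 3.33 in tumorspheres. The ratio of 3′ to 5′ beta-actin probe sets, a sign of RNA or amplification length, was 6.88 ± 1.96 (SD, n = 4) in wild-type ganglia, 2.55 ± 0.174 (n = 4) in homozygous tumors and 2.21 ± 0.336 (n = 4) in hemizygous tumors. The same ratio for GAPDH overlapped, at 2.56 to 4.13 in wild-type ganglia, 2.77 to 3.61 in homozygous tumors and 2.71 to 3.14 in hemizygous tumors. The part of these differences in the results was not tested. The 5′ probe set of 18S ribosomal RNA set arrays apart within groups, at 2830 and 2990.0 in wild-type ganglia 1 and 2 against 1220.0 and 748 in 3 and 4, at 2910.0 and 3030.0 in homozygous tumors 1 and 2 against 1070.0 and 1170.0 in 3 and 4, and at 2250.0 and 2290.0 in hemizygous tumors 3 and 4 against 1550.0 and 1270.0 in 1 and 2. It read 2870.0 and 2930.0 in homozygous ganglia, 2780.0 and 2640.0 in knockout tumors, 589 and 1450.0 in neurospheres and 1110.0 and 2040.0 in tumorspheres, so comparisons were also fitted on the 11 arrays above 2000 and on the others, a split chosen after the values were seen. Mdk itself read 42.6 and 35.5 in the knockout tumors and 268 to 297 in the homozygous tumors.

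Most members were higher in MYCN tumors than in wild-type ganglia, the comparison that asks how the tumors differ from the normal tissue. The members had been chosen with earlier results of these data known. Of 40 members, 37 rose and 1 fell in homozygous tumors, and 39 rose and 1 fell in hemizygous tumors (limma, adjusted p under 0.05 over all genes). Of all genes tested, 23.1% rose and 26.6% fell in homozygous tumors (49.8% in either direction), and 27.0% rose and 25.6% fell in hemizygous tumors (52.6%). The median member differed by 1.32 on the log2 scale in homozygous and 1.90 in hemizygous tumors, where the median over all genes was -0.12 and -0.05. Every homozygous tumor array lay above every wild-type ganglion array for 34 members (20.8% of all genes), and every hemizygous tumor array did so for 37 (22.2% of all genes). The gene that fell was Nop10, and those that passed in neither direction in homozygous tumors were Nhp2 and Rrp12. The wild-type ganglia are shared by both comparisons. With wild-type ganglia 1 and 2 as the control arrays, 33 and 38 members passed in the 2 comparisons, and with ganglia 3 and 4, 36 and 39. On the arrays with 18S above 2000 the counts were 33 and 38, where 3341 and 4006 of all genes rose and 3843 and 3721 fell. On the others the counts were 37 and 40, where 3269 and 3717 of all genes rose and 3437 and 3497 fell. Rrp9 stayed under the filter level (the 40th percentile of an array) in all 4 wild-type ganglia and passed the filter only through other groups, while Ppan was not above it on 2 of these ganglia. No other member was below that level on a wild-type ganglion.

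**Figure D1:**
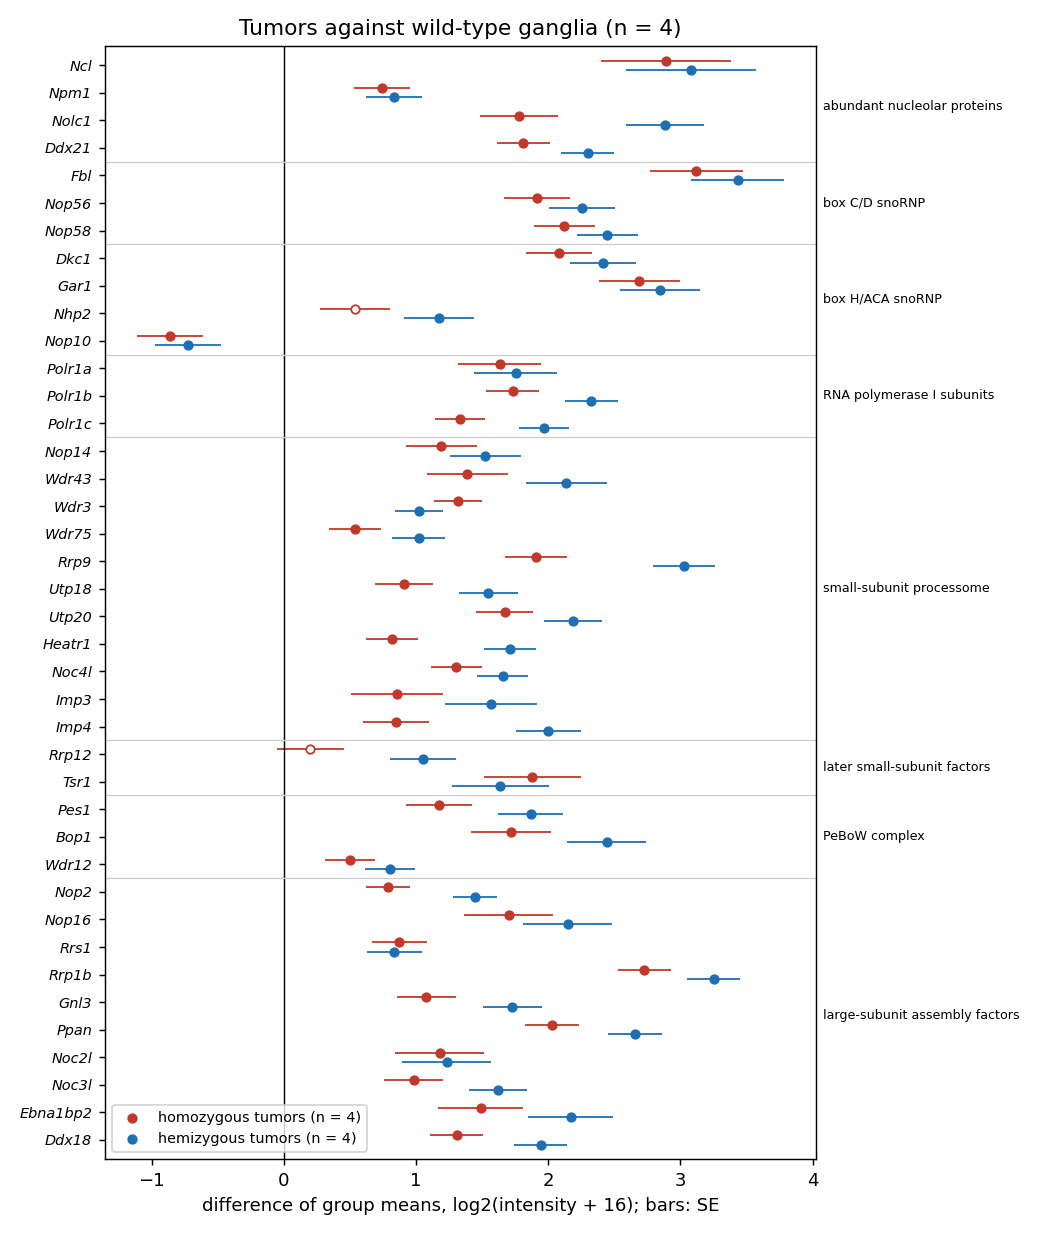
Difference of the group means of log2(intensity + 16) from wild-type ganglia (horizontal axis) for 40 ribosome biogenesis genes in 8 roles (rows), homozygous tumors in red and hemizygous tumors in blue. Bars are standard errors and open points did not pass the threshold. Nop10 is the point left of 0 in both genotypes, and Fbl (3.12 and 3.43), Ncl and Rrp1b lie farthest right.

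The members' promoters were searched for CACGTG, the E-box that reads the same on both strands. RefSeq promoter windows (build GRCm38.p6, 250 bases before to 50 after a gene's start) were matched for 36 of the 41 members. At least 1 window held CACGTG for 7 of the 36 (19.4%), and the same was true of 10.9% of the genes tested that had a window. The related E-boxes CGCGTG and CATGTG, each searched with its reverse complement, were held by 25.0% and 22.2% of members, against 18.2% and 10.9% of the genes tested. Member windows were richer in G and C than all windows together, with a median of 57.2% against 52.7%. No such median was taken for the genes tested, the set that the E-box shares are compared with. The sites of the 7 genes are printed below because they are the letters a MYC-family protein is known to read. By the probe sets used, these genes rose in both tumor genotypes, though another probe set of Imp4 went the other way in both. Sites are given 5′ to 3′ along the gene's strand with the E-box in capitals.
Imp4, chr1:34439696-34439725, plus strand: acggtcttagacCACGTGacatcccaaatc
Nop2, chr6:125131811-125131840, plus strand: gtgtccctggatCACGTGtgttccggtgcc
Utp20, chr10:88826765-88826789, minus strand: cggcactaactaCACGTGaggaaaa
Pes1, chr11:3963965-3963994, plus strand: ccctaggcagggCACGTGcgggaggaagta
Tsr1, chr11:74898092-74898121, plus strand: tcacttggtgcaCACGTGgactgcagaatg
Utp18, chr11:93885769-93885798, minus strand: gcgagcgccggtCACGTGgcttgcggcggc
Wdr43, chr17:71616220-71616249, plus strand: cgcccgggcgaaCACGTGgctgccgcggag

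The E-box lies before the start site in Imp4 (121 bases away), Nop2 (60 bases) and Utp18 (20 bases). It lies after that site in Utp20 (37 bases), Tsr1 (24 bases), Wdr43 (17 bases) and Pes1 (2 bases). Distances are counted from the start site to the first base of the E-box along the gene's strand. The 250 bases before the start of Nop2 and of Imp4 are shown whole, since the probe sets used for both genes read higher in hemizygous than in homozygous tumors, which for Imp4 other probe sets did not follow.
Nop2 upstream, chr6:125131633-125131882, plus strand: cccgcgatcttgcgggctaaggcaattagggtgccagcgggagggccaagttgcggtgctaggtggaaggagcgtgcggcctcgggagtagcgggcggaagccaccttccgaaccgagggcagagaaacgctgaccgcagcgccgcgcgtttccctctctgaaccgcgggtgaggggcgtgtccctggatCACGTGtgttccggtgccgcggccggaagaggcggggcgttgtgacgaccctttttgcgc
Imp4 upstream, chr1:34439579-34439828, plus strand: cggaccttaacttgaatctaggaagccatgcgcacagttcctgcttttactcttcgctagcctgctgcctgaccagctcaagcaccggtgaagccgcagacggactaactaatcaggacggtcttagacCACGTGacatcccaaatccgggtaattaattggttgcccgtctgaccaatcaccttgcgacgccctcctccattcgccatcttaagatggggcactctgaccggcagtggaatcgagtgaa
The 7 genes with CACGTG had a median log2 difference from wild-type ganglia of 1.17 (0.79 to 1.88) in homozygous tumors, and the 28 tested members with a window lacking it had 1.41 (-0.86 to 2.89). In hemizygous tumors the medians were 1.87 and 1.96. A match of letters is a description and shows no binding.

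The abundant nucleolar proteins all rose in both tumor genotypes. Ncl encodes nucleolin, a major RNA-binding protein of the nucleolus. It read 637, 652, 135 and 67.5 in wild-type ganglia, 2105, 1878, 2016 and 2005 in homozygous tumors and 2306, 2689.8, 2371 and 1851 in hemizygous tumors. Every tumor array exceeded every ganglion array, and ganglia 3 and 4 were far below ganglia 1 and 2, the widest spread of any member in that group. The difference was 7.4-fold (log2 2.89 ± 0.49 SE, limma adjusted p = 9.1e-05) in homozygous and 8.45-fold (adjusted p = 3.8e-05) in hemizygous tumors, folds being taken on the log2(intensity + 16) scale, which understates the change of dim probe sets. Npm1, whose product nucleophosmin is a nucleolar chaperone, read 2509, 3166, 1314 and 1632 in wild-type ganglia and 3555, 3814, 3087 and 3212 in homozygous tumors. Ganglion 2 lay inside the tumor range, and the 1.67-fold difference (adjusted p = 0.0073) was 0.27 on the log2 scale (adjusted p = 0.19) with ganglia 1 and 2 as the control arrays. Nolc1, a snoRNP chaperone that shuttles between nucleolus and cytoplasm, read 72.9, 111, 26.3 and 48.8 in wild-type ganglia, 303, 271, 167 and 240.3 in homozygous tumors and 468, 446, 644 and 611 in hemizygous tumors. The 3 groups did not overlap, with 3.43-fold and 7.39-fold differences from the ganglia (adjusted p = 6.8e-05 and 2.1e-07). Ddx21, an RNA helicase that acts in transcription and processing of ribosomal RNA, read 59.9, 62.8, 106 and 106 in ganglia, 306, 290.0, 323 and 387 in homozygous and 419, 564, 441 and 433 in hemizygous tumors. Here ganglia 3 and 4 were the higher ones, and the groups again did not overlap (3.51-fold and 4.91-fold, adjusted p = 7.3e-07 and 2.9e-08).

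The 3 box C/D proteins rose together and strongly. Fbl encodes fibrillarin, the methyltransferase of the box C/D snoRNP. Its intensities were 189, 218, 52.2 and 73.5 in wild-type ganglia, 1042, 1077, 1197 and 1172 in homozygous tumors and 1255, 1503, 1429 and 1403 in hemizygous tumors. The lowest tumor array stood far above the highest ganglion array, giving rises of 8.69-fold and 10.8-fold (limma adjusted p = 8.9e-07 and 2e-07). These were the largest of the members on the log2(intensity + 16) scale, but with a pseudocount of 1 Rrp9 (log2 4.52) and Rrp1b (3.70) rose more than Fbl (3.62) in hemizygous tumors. Nop56, a core scaffold protein of the same particle, read 209, 174, 256 and 187 in ganglia, 915, 903, 695 and 769 in homozygous and 1001, 853, 1339 and 1002 in hemizygous tumors. Its partner Nop58 read 87.5, 88.5, 59.8 and 71.7, 453, 382, 338 and 376 and 441, 483, 570.2 and 458 in those groups. Both had ganglia close to each other and no overlap with the tumors, with log2 differences of 1.92 ± 0.25 (SE) and 2.12 ± 0.23 in homozygous tumors and 2.25 ± 0.25 and 2.45 ± 0.23 in hemizygous tumors.

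The box H/ACA proteins, which assemble around pseudouridylating guide RNAs and telomerase RNA, split. Dkc1, the pseudouridine synthase dyskerin, read 179, 181, 206 and 196 in wild-type ganglia, 708, 584, 1100.4 and 1177 in homozygous tumors and 1375, 1455, 822 and 835 in hemizygous tumors. The ganglia were tightly grouped and all tumors were above them, while homozygous tumors 3 and 4 exceeded 1 and 2, and hemizygous tumors 1 and 2 exceeded 3 and 4. The rises were 4.23-fold and 5.33-fold (adjusted p = 2.1e-06 and 2.6e-07). Gar1, a core protein of the particle, read 288, 293, 91.97 and 107 in ganglia, 1174, 1121, 1177 and 1320.5 in homozygous and 1533, 1633, 1329.6 and 949.6 in hemizygous tumors. It rose 6.45-fold and 7.19-fold (adjusted p = 9.3e-07 and 3.5e-07) with no overlap. Nhp2 read 982, 1259, 506 and 632 in ganglia and 1136, 1365, 944 and 1229 in homozygous tumors, overlapping ranges whose difference of 0.54 ± 0.26 (SE) did not pass (adjusted p = 0.1). At 1919.7, 1523, 2224 and 1643 in hemizygous tumors it lay above all ganglia and passed (2.25-fold, adjusted p = 0.0011). Nop10, the smallest protein of the same core, went the other way, with 2024, 3589, 3229 and 2899.7 in ganglia, 1767, 2054, 1253 and 1348 in homozygous tumors and 1263, 1186, 2649 and 2249.6 in hemizygous tumors. The ranges overlapped in both genotypes, since ganglion 1 was low and hemizygous tumors 3 and 4 were high. The fall was 1.82-fold (adjusted p = 0.0076) and 1.65-fold (adjusted p = 0.02). It no longer passed after quantile normalization (log2 -0.50 and -0.31, adjusted p = 0.089 and 0.29) or with the other probe set of the gene (-0.63 and -0.16, adjusted p = 0.077 and 0.66).

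The 3 RNA polymerase I subunits rose in both genotypes. Polr1a, the largest catalytic subunit, read 28.1, 34.3, 18.6 and 14.5 in wild-type ganglia, 118, 88.02, 105 and 111 in homozygous tumors and 115, 106, 135 and 108 in hemizygous tumors. Polr1b, the second catalytic subunit, read 26.7, 28.3, 21.1 and 38.9, 137, 131, 121 and 137 and 202, 189, 231 and 205. Polr1c, which polymerase I shares with polymerase III, read 286, 361, 237 and 237, 742, 670.5, 717 and 753 and 1082, 1075, 1459 and 951. No tumor array of these 3 genes fell into the ganglion range, and for Polr1b and Polr1c the hemizygous tumors also lay wholly above the homozygous ones. The rises over ganglia were 3.1-fold, 3.32-fold and 2.52-fold in homozygous tumors (limma adjusted p = 0.00029, 1.2e-06 and 1.3e-05) and 3.37-fold, 5.01-fold and 3.92-fold in hemizygous tumors.

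All 11 members of the small-subunit processome, the large particle that cuts and folds the small-subunit part of the precursor, rose in both genotypes, with log2 differences of 0.54 to 1.91 in homozygous and 1.02 to 3.03 in hemizygous tumors. Rrp9, a protein that binds the U3 box C/D snoRNA, was dim in ganglia at 7.04, 7.84, 7.44 and 3.81 and read 97.3, 85.5, 44.4 and 56.7 in homozygous tumors and 125, 142, 208 and 211 in hemizygous tumors. The 3 groups did not overlap. No fold is given against these dim ganglia, since the added value sets it: the log2 differences were 1.91 and 3.03 with 16 added, 3.23 and 4.52 with 1 and 0.92 and 1.72 with 64. Utp20, a large scaffold protein, read 84.3, 92.6, 59.3 and 39.5 in ganglia, 224, 212, 252 and 301 in homozygous and 405, 457, 315 and 282 in hemizygous tumors (3.18-fold and 4.56-fold, adjusted p = 5e-06 and 1.5e-07). Its ganglia lay below every tumor, and the tumors of both genotypes overlapped. Heatr1, a processome subunit needed for precursor transcription, read 103, 134, 105 and 104, 176, 201, 195 and 270.0 and 403, 456, 367 and 373. All its tumor arrays stood above its ganglia, by 1.76-fold and 3.27-fold. Wdr43, another subunit of that kind, read 141, 131, 126 and 112 in ganglia, 353, 358, 294 and 442 in homozygous and 515, 800.2, 761 and 448 in hemizygous tumors, again without overlap with the ganglia (2.61-fold and 4.39-fold). Wdr3 was the one processome member with a lower mean in hemizygous than in homozygous tumors, at 456, 588, 429.9 and 459 in ganglia, 1150.4, 1444, 1020.2 and 1299.8 in homozygous and 1045, 1293, 967 and 739 in hemizygous tumors, and that difference did not pass (log2 -0.29 ± 0.18 SE, adjusted p = 0.4). The rise in homozygous tumors was smallest for Wdr75 (1.45-fold, adjusted p = 0.033, and 0.10 after quantile normalization), followed by Heatr1, Imp4 and Imp3. Imp3, which with Imp4 joins U3 to the precursor, read 147, 178, 46.3 and 38.4 in ganglia and 192, 199, 143 and 145 in homozygous tumors. Ganglia 1 and 2 lay among the tumors and ganglia 3 and 4 far below, and with 1 and 2 as the control arrays the difference was 0.05 (adjusted p = 0.90). Nop14 (2.28-fold), Noc4l (2.47-fold) and Utp18 (1.87-fold) also rose in homozygous tumors.

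Later small-subunit factors are represented by Rrp12 and Tsr1, which act as the pre-subunit matures and leaves the nucleus. Rrp12 read 31.8, 26.6, 41.3 and 28.4 in ganglia, 32.6, 32.6, 40.4 and 51.8 in homozygous tumors and 108, 93.4, 81.7 and 55.8 in hemizygous tumors. Only the hemizygous tumors lay wholly above the ganglia (2.07-fold, limma adjusted p = 0.0017), and the homozygous difference was 0.20 ± 0.25 (log2, SE; adjusted p = 0.53). Tsr1 read 790.2, 767, 215 and 259.9 in ganglia, 1749.8, 1867, 1446 and 1497 in homozygous and 1395, 1712, 1256 and 1198 in hemizygous tumors. It rose 3.68-fold and 3.11-fold (adjusted p = 0.00033 and 0.00098), with ganglia 3 and 4 again the lowest arrays.

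The PeBoW complex, formed by Pes1, Bop1 and Wdr12, is needed to mature the large-subunit RNA, and all 3 genes rose in both genotypes. Pes1 read 68.1, 93.4, 51.6 and 44.97 in ganglia, 186, 168, 144 and 149 in homozygous tumors and 236, 232, 369 and 262 in hemizygous tumors. Bop1 read 95.8, 61.3, 32.8 and 28.4, 208, 175, 203 and 220.2 and 316, 304, 379 and 375. Wdr12 read 199, 195, 167 and 165, 229.6, 199.9, 329 and 310.1 and 361, 413, 339 and 227. No tumor array of the 3 genes fell into the ganglion range. Pes1 and Bop1 rose 2.26-fold and 3.29-fold in homozygous and 3.65-fold and 5.43-fold in hemizygous tumors, while Wdr12 rose 1.41-fold (adjusted p = 0.037) and 1.75-fold (adjusted p = 0.0016). Homozygous tumors 1 and 2 were nearest to the ganglia for Wdr12, and without tumor 3 its rise did not pass (log2 0.39, adjusted p = 0.13).

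The 10 other large-subunit assembly factors rose in both genotypes, by 0.79 to 2.73 in homozygous and 0.84 to 3.25 in hemizygous tumors on the log2 scale. Rrp1b, a nucleolar factor of large-subunit processing, read 40.96, 32.7, 31.7 and 42.2 in ganglia, 320.0, 349, 305 and 359.9 in homozygous tumors and 455, 495, 597 and 415 in hemizygous tumors. It had the smallest adjusted p of all members (6.62-fold and 9.53-fold, adjusted p = 5.7e-09 and 4.6e-10) and groups that were tight and far apart. Ppan, a factor of the Brix family, read 24.5, 13.5, 11.3 and 10.5 in ganglia, 126, 119, 88.9 and 103 in homozygous and 155, 160.0, 207 and 189 in hemizygous tumors (adjusted p = 2.6e-07 and 6.6e-09). Its ganglia were dim and below all tumors, and the log2 differences were 2.03 and 2.66 with 16 added and 2.85 and 3.55 with 1. Gnl3 encodes nucleostemin, a GTP-binding nucleolar protein, and read 371, 492, 465 and 491, 717, 786, 1172 and 1346 and 1690.0, 1954, 1457 and 1149 in the same groups. Its tumors all exceeded its ganglia (2.11-fold and 3.31-fold), with homozygous tumors 3 and 4 above 1 and 2. Nop2, the large-subunit RNA methyltransferase, read 36.8, 51.3, 54.2 and 40.3 in ganglia, 80.1, 109.8, 72.6 and 99.8 in homozygous and 132, 126, 176 and 176 in hemizygous tumors, and no group overlapped another (1.72-fold and 2.72-fold over ganglia). Nop16 (3.25-fold), Ebna1bp2 (2.81-fold), Ddx18 (2.48-fold), Noc3l (1.97-fold) and Rrs1 (1.83-fold) also rose in homozygous tumors. The probe set of Rrs1 can also bind related transcripts, and through another probe set its difference was 0.29 on the log2 scale (adjusted p = 0.52). Noc2l read 32.4, 28.6, 70.99 and 67.6 in ganglia and 199, 246, 89.6 and 64.2 in hemizygous tumors. Hemizygous tumor 4 fell inside the ganglion range, and with ganglia 3 and 4 as the control arrays the rise did not pass (log2 0.79, adjusted p = 0.084).

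**Figure D2:**
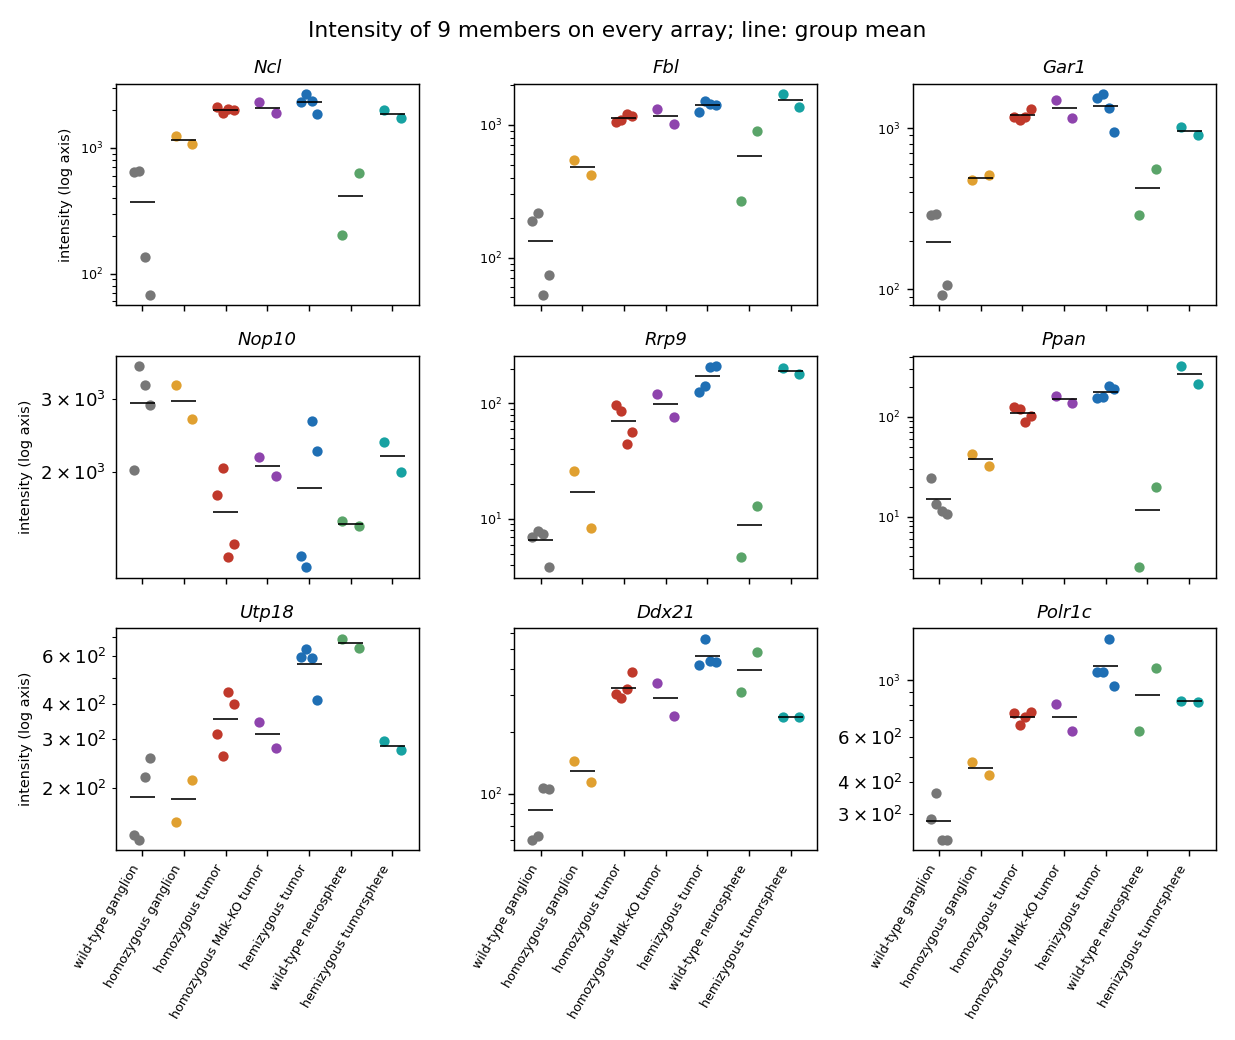
Deposited intensity (vertical axis, log scale) of 9 ribosome biogenesis genes on every array of the 7 groups (horizontal axis); each point is 1 array and the line is the group mean. Wild-type ganglia are the lowest group for Ncl, Fbl, Gar1 and Ddx21, Nop10 has its lowest levels in tumors and neurospheres, and Utp18 is highest in neurospheres.

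Homozygous ganglia are tissue that carries the transgene without the tumor label. Their group mean lay between those of wild-type ganglia and homozygous tumors for 34 of 40 members, an order not counted over all genes. Against wild-type ganglia, 6 members rose and none fell (3.99% and 1.02% of all genes, 5.01% in all), and 23 members had an unadjusted p under 0.05 (21.4% of all genes). These 6 were all 3 box C/D genes together with Gar1, Wdr3 and Ddx18. Both homozygous ganglia exceeded all 4 wild-type ganglia for 29 members (14.0% of all genes), with a median log2 difference of 0.69 over the members and -0.03 over all genes. Fbl read 543 and 421 in the homozygous ganglia, 3.78-fold over wild type (limma adjusted p = 0.012). Nop56 read 644 and 443 (2.5-fold, adjusted p = 0.016), and Nop58 223 and 181 (2.36-fold, adjusted p = 0.014). Wdr3, at 1143 and 940.2, had the smallest adjusted p (2.12-fold, 0.0059) and 1 of these ganglia lay inside the range of the homozygous tumors. Ncl read 1242 and 1068, above all wild-type ganglia, and did not pass (4.29-fold, adjusted p = 0.051). In contrast Rrp9 (25.8 and 8.38), Utp18 (150.4 and 213) and Nop2 (57.3 and 43.8) had at least 1 homozygous ganglion within or next to the wild-type range. The count rests on few arrays: it was 0 without homozygous ganglion 1, 2 without homozygous ganglion 2, 11 and 14 without wild-type ganglion 1 or 2, 3 with wild-type ganglia 1 and 2 alone, 23 with 3 and 4 alone, and 0 when only the arrays of both groups set the spread. On the arrays with 18S above 2000 (both homozygous ganglia and wild-type ganglia 1 and 2) it was 6, with Ncl and Ddx21 in and Gar1 and Ddx18 out. Of all genes, 601 rose and 67 fell on these arrays. The other counts of this kind stand without the share of all genes, so their shifts are not shown to be particular to the members. Skeletal muscle Acta1 read 1040.0 and 529 in wild-type ganglia 1 and 2, 16 and 7.1 in 3 and 4, and 24.4 and 867 in the homozygous ganglia, and without all arrays above 100 the count was 15.

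Homozygous tumors in turn exceeded homozygous ganglia for 15 members and fell below them for 1 (9.35% and 12.3% of all genes, 21.6% in all). The median member difference was 0.71 on the log2 scale and that of all genes -0.03. The largest rise was that of Rrp1b, from 80.6 and 70.4 in homozygous ganglia to 320.0, 349, 305 and 359.9 in tumors (3.82-fold, limma adjusted p = 4.9e-05). Polr1b rose from 38.1 and 40.6 to 137, 131, 121 and 137 (2.66-fold, adjusted p = 0.00067), its homozygous ganglia being close to the highest wild-type ganglion. Dkc1 went from 369.6 and 308 to 708, 584, 1100.4 and 1177 (2.47-fold, adjusted p = 0.006). For each of these 3 genes the groups were apart. Npm1 (3749 and 3402 in homozygous ganglia), Heatr1 (190.2 and 179), Imp3 (186 and 179) and Imp4 (132 and 94.5) overlapped with the tumors, and log2 differences were -0.07 ± 0.26 (SE), 0.16 ± 0.24, -0.11 ± 0.42 and 0.01 ± 0.30. Nop10 was the member that fell, from 3238 and 2689 to the tumor values above (1.87-fold, adjusted p = 0.042), and it did not pass after quantile normalization (adjusted p = 0.14) or without homozygous ganglion 1 or 2 (adjusted p = 0.25 and 0.14). The count of members past the threshold was 7 without homozygous ganglion 1, 2 without homozygous ganglion 2, 9 without homozygous tumor 4 and 26 when only the arrays of both groups set the spread.

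**Figure D3:**
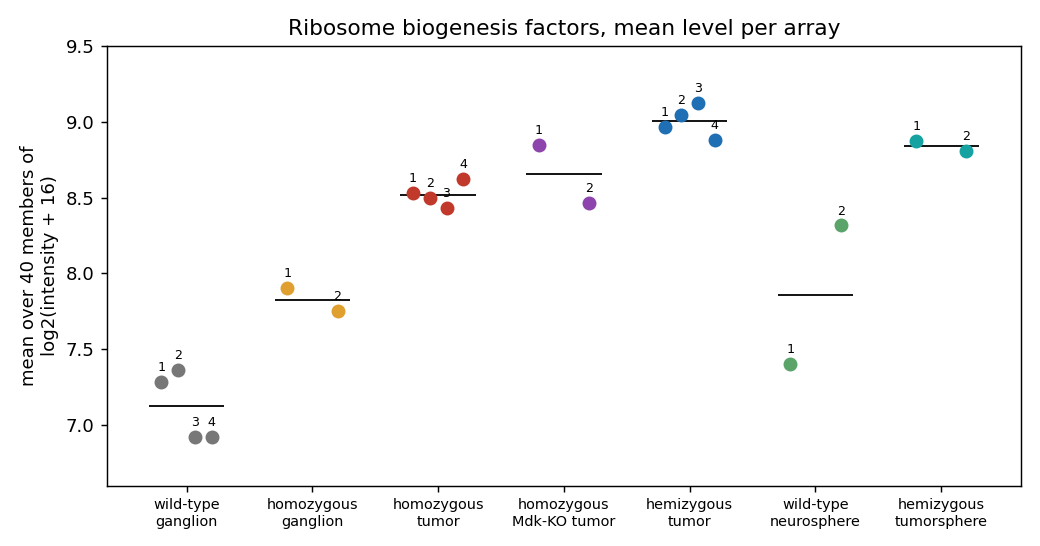
Mean of log2(intensity + 16) over 40 ribosome biogenesis genes (vertical axis) on each of the 20 arrays, by group (horizontal axis); numbers are replicate numbers and lines are group means. Wild-type ganglia lie at 6.92 to 7.36, homozygous ganglia at 7.75 and 7.90, homozygous tumors at 8.43 to 8.62 and hemizygous tumors at 8.88 to 9.12, and the 2 neurospheres lie apart at 7.40 and 8.32.

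Hemizygous tumors had a higher mean than homozygous tumors for 37 of 40 members, a count not made over all genes. By the test 5 members were higher and 0 lower (3.46% and 2.74% of all genes, 6.21% in all), and 22 had an unadjusted p under 0.05 (20.8% of all genes). The cell make-up differed as well, and the sums of 4 marker lists did not overlap. Summed endothelial markers (7 genes) were 416.7 to 662.8 in hemizygous and 178.6 to 228.6 in homozygous tumors. Sympathetic neuron markers were 7535 to 9025 and 12330 to 13970, and neural stem and radial glia markers (8 genes) 199.1 to 242.1 and 282.6 to 317.8. The stem and radial glia gap rested mainly on Prom1, at most 49.6 in hemizygous and at least 81.1 in homozygous tumors. Hes5 was lower in hemizygous tumors too, while Nes went the other way (41.4 to 48.9 and 23.3 to 32.5). Msi1 overlapped, and Sox2, Pax6, Olig2 and Slc1a3 were dim in both. The mean log2 level of this list did not overlap (4.98 to 5.22 and 5.31 to 5.47). Lymphocyte markers (7 genes) summed to 219.0 to 1156 and 158.3 to 210.3. That sum rested mainly on Ptprc, whose ranges overlapped (157 to 1070 and 107 to 168). The mean log2 level of the lymphocyte list overlapped too (5.0 to 5.46 and 4.72 to 5.07). The part of the marker lists in the member differences was not tested. Groups did not overlap for 18 members, all higher in hemizygous tumors (11.8% of all genes). The median difference was 0.52 (log2), against 0.06 over all genes. Rrp9, with the values above, was 2.18-fold higher (limma adjusted p = 0.0079). Imp4 read 106, 111, 104 and 133 in homozygous and 260.0, 217, 336 and 281 in hemizygous tumors, which is 2.22-fold (adjusted p = 0.0094). Heatr1 (1.85-fold, adjusted p = 0.012), Nolc1 (2.15-fold, adjusted p = 0.032) and Nop2 (1.58-fold, adjusted p = 0.027) completed the list, and the lowest hemizygous array exceeded the highest homozygous array in each. For 3 of these genes other probe sets did not follow: log2 differences were -0.57 and 0.32 for Nolc1, -0.06 and -0.01 for Heatr1, and -0.11 and 0.08 for Imp4. With the mean of all probe sets none of the 3 passed (adjusted p = 0.42, 0.16 and 0.10). Rrp9 and Nop2 have 1 probe set each. The count was 2 with a pseudocount of 1, 10 with a pseudocount of 64, 17 when only the arrays of both groups set the spread, 2 and 3 without homozygous tumor 1 or 3, and 3 without hemizygous tumor 3. It was 10 on the arrays with 18S above 2000, of which Tsr1 was lower, and 0 on the others. Of all genes, 1163 were higher and 789 lower on the former arrays, and 22 and 36 on the latter. The median member difference was 0.57 on the former and 0.52 on the latter. The labels do not say which transcript the transgene makes, and the brightest Mycn probe set read 120.0 to 170.0 in homozygous and 15.7 to 77.7 in hemizygous tumors, with 236 to 413 in wild-type ganglia. Another one read 26.7 to 70.7 in homozygous and 34.6 to 73.9 in hemizygous tumors, overlapping ranges that both lay above its 2.93 to 14.9 in wild-type ganglia.

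Loss of Mdk was not accompanied by a detected change. Knockout tumors against homozygous tumors gave 0 members in either direction (limma; 0.00661% of all genes in either direction), and 0 members with an unadjusted p under 0.05 (1.32% of all genes). Member differences ran from -0.41 to 0.64 on the log2 scale with a median of 0.14. Both knockout tumors exceeded all homozygous tumors for 3 members, Nop56, Nhp2 and Ppan (8.13% of all genes). Ncl read 2303 and 1873 in the knockout tumors (95% interval of the log2 difference -1.21 to 1.32) and Fbl 1314 and 1018 (-0.86 to 0.95). Rrp1b, at 524 and 255, had an interval of -0.38 to 0.65, and Nolc1, at 514 and 283, one of -0.12 to 1.39. These intervals allow changes of considerable size for single genes, and the test with 2 knockout arrays does not show that the levels are alike. Knockout tumor 1 was above knockout tumor 2 for 37 of 40 members, which was not counted over all genes.

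In culture, tumorspheres exceeded neurospheres for 20 members and were below them for 2 (23.5% and 14.9% of all genes, 38.4% in all). The median difference was 0.97 on the log2 scale, against 0.11 over all genes. Ppan, Imp3 and Rrp9 had the largest differences with 16 added, in an order that depends on the added value since Ppan and Rrp9 were dim in neurospheres: with 64 added Imp3 (log2 2.52) came first and Rrp9 (1.81) was below Ncl (2.16). Ppan read 3.08 and 20.02 in neurospheres and 324 and 217 in tumorspheres (limma adjusted p = 5.9e-08). Imp3 read 25.2 and 62.8 and 568 and 528 (9.89-fold, adjusted p = 3.8e-05), and Rrp9 4.68 and 13.03 and 202 and 179.5 (adjusted p = 9.9e-07). In all 3 the neurospheres were far below both tumorspheres. The box C/D genes again all rose, Fbl from 264 and 899 to 1711 and 1351 (3.04-fold, adjusted p = 0.015). Utp18, a processome WD-repeat protein, went down from 691 and 639.9 to 294 and 273 (2.27-fold, adjusted p = 0.0057). Noc3l, a factor of the large subunit, went down from 45.9 and 98.4 to 28 and 36.1 (1.76-fold, adjusted p = 0.048). A second probe set of Noc3l differed by -0.08 and a dim second one of Utp18 by 0.22, while the second one of Ddx21, which did not pass (log2 -0.69 ± 0.28 SE, adjusted p = 0.063), differed by 0.69. The neurospheres differed from each other: neurosphere 2 was above neurosphere 1 for 36 of 40 members, by a median of 0.85 on the log2 scale where all genes had -0.07. Neurosphere 1 also had a beta-actin 3′ to 5′ ratio of 7.77 against 3.78, and neurosphere 2 a GAPDH ratio of 11.5 against 3.37, whose part was not tested. Without neurosphere 1 the count of members past the threshold was 13, and without neurosphere 2 it was 28. The spheres also differ in cell type, as their Sox2, Olig2 and summed sympathetic markers show. Of the latter, Th read 3100 and 3330 in tumorspheres and 14.1 and 9.72 in neurospheres. Slc6a2 (15.7 and 27.4, 13.4 and 1.07) and Prph (3.59 and 13.2, 1.28 and 0.653) were dim in both. Genotype and cell type therefore cannot be told apart here.

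The tumor difference was not the same in tissue and in culture. Hemizygous tumors minus wild-type ganglia was set against tumorspheres minus neurospheres in 1 contrast of all 4 groups, which share no arrays, in a test chosen after the values were seen. It was larger in tissue for 14 members (35.0%, against 14.7% of all genes) and larger in spheres for 2 (5.0%, against 17.8%). The 14 were Ddx21, Utp18, Noc3l, Dkc1, Polr1c, Wdr43, Polr1a, Fbl, Gar1, Noc2l, Heatr1, Rrs1, Pes1 and Utp20, and the 2 were Imp3 and Nop10. Ddx21 had the largest gap, 2.98 ± 0.35 (log2, SE; limma adjusted p = 3.2e-06), as its neurospheres read 310.4 and 487 and its tumorspheres 236 and 235. As given above, second probe sets of Ddx21 and Utp18 differed the other way between spheres, and that of Noc3l hardly differed. For Polr1a, Utp18, Heatr1 and Pes1 another probe set differed the other way between neurospheres and wild-type ganglia. Polr1c was flat in culture at 634 and 1121 in neurospheres and 833 and 825 in tumorspheres, a gap to tissue of 1.99 ± 0.33 (adjusted p = 0.00013). Polr1a read 31.9 and 209 in neurospheres and 95.7 and 62.1 in tumorspheres, with 1 neurosphere below and 1 above both tumorspheres, and without neurosphere 2 its sphere difference was 0.96 (adjusted p = 0.017). Dkc1 was likewise close between cultures, 446 and 769.9 and 656 and 696 (gap 2.22 ± 0.44, adjusted p = 0.00069). For Bop1 and Nop2 the tissue and sphere differences were within 0.07 of each other on the log2 scale, and their gaps did not pass.

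**Figure D4:**
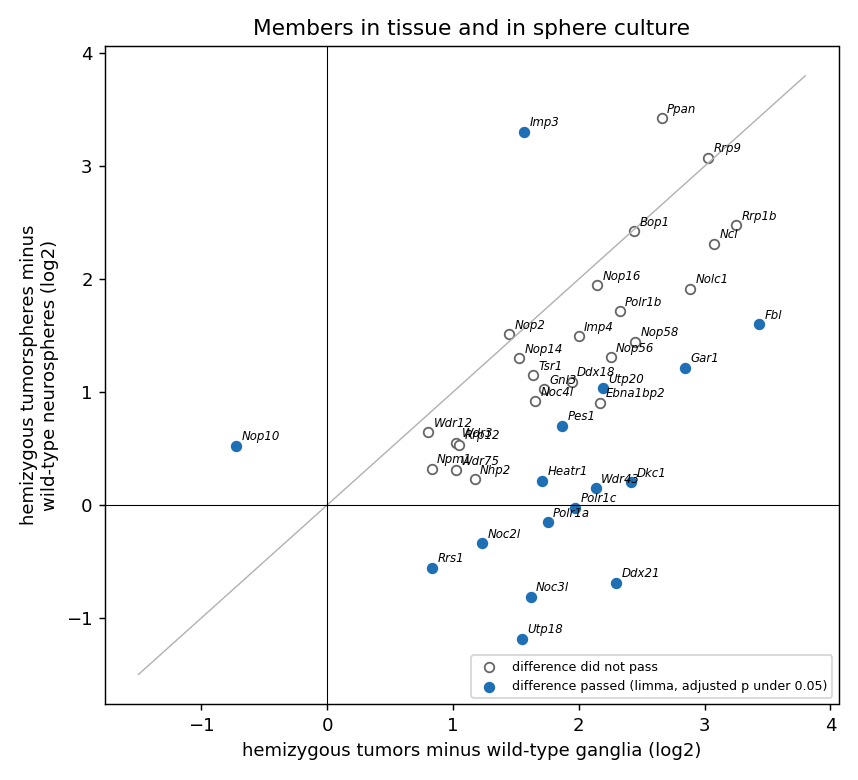
Log2 difference between hemizygous tumors and wild-type ganglia (horizontal axis) against that between hemizygous tumorspheres and wild-type neurospheres (vertical axis) for 40 ribosome biogenesis genes; filled points passed the test of the difference between both, and the grey line marks equal differences. Of the filled points, 14 lie below the line and Imp3 and Nop10 above it.

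Tumorspheres against hemizygous tumors, the same genotype in culture and in tissue, gave 0 members higher and 3 lower (limma; 5.61% and 6.99% of all genes, 12.6% in all), and 9 members had an unadjusted p under 0.05 (25.3% of all genes). The 3 were Noc3l, Ddx21 and Utp18. Noc3l read 104, 138, 92.9 and 80.04 in tumors and 28 and 36.1 in tumorspheres (2.46-fold lower, adjusted p = 0.0036). Ddx21 and Utp18, with the values above, were 1.9-fold and 1.89-fold lower (adjusted p = 0.018 and 0.031). In each of the 3 genes both tumorspheres were below all 4 tumors. The count was 0 without tumorsphere 1, 1 without tumorsphere 2 and 1 without hemizygous tumor 2. The median member differed by -0.15, and Nop56, Nolc1 and Polr1b differed by 0.02 or less in either direction.

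Neurospheres exceeded wild-type ganglia for 21 members and were lower for 1 (16.8% and 22.4% of all genes, 39.2% in all), with a median of 0.70 against -0.12 over all genes. Ddx21 had the largest rise (4.17-fold, limma adjusted p = 2.3e-06), followed by Fbl (3.87-fold, 0.0013) and Utp18 (3.51-fold, 3.2e-05), of which a dim second probe set of Utp18 differed by -0.21 on the log2 scale. Both neurospheres were above all ganglia in each of these genes. Nop10, at 1528 and 1486, was lower than every ganglion (1.9-fold, adjusted p = 0.022). Ppan, Imp3, Wdr12 and Nop10 had their lowest mean of all groups in neurospheres. Without neurosphere 2 the count was 6, and Nop16, at 27.7 and 173 in the neurospheres, then passed as lower (log2 -1.0, adjusted p = 0.047).

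**Figure D5:**
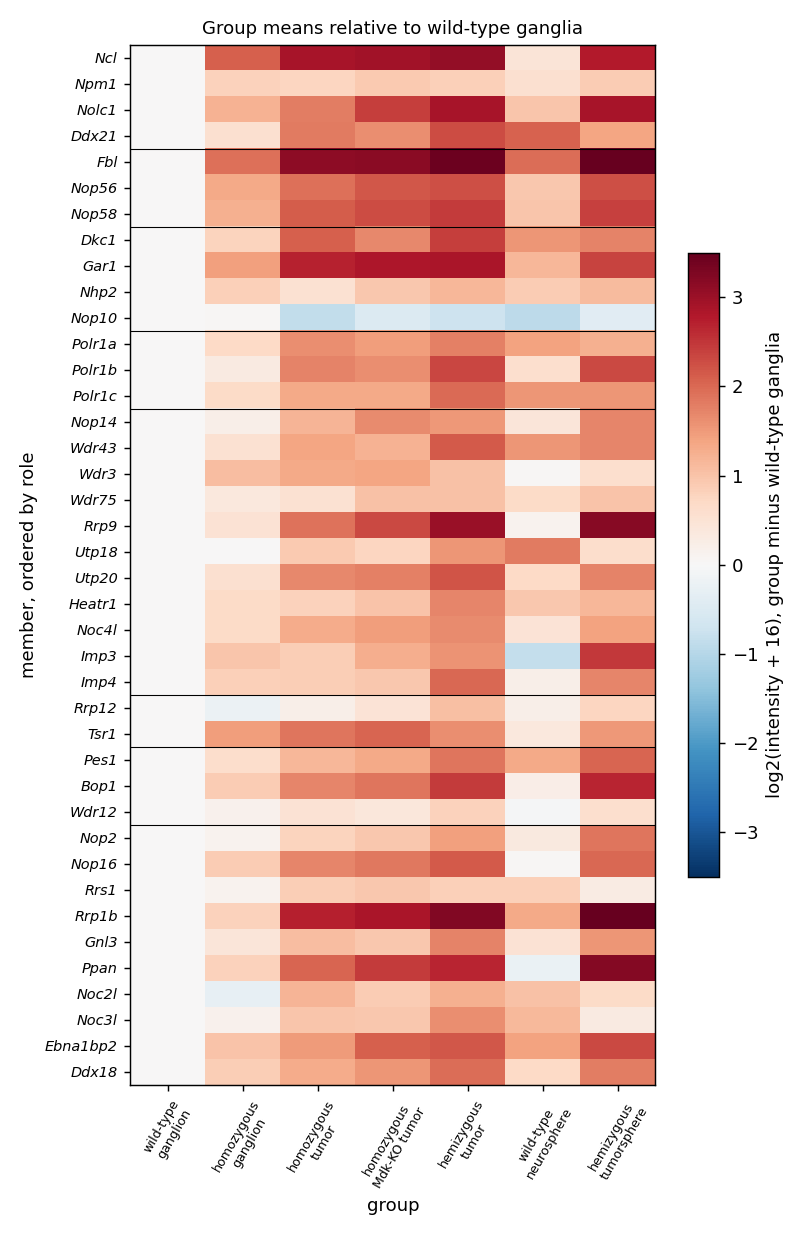
Group mean of log2(intensity + 16) minus that of wild-type ganglia (colour scale, log2) for 40 ribosome biogenesis genes (rows, by role) in the 7 groups (columns). Red fills the tumor and tumorsphere columns except in the row of Nop10, and neurospheres hold blue cells for Nop10, Imp3 and Ppan.

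Across the 7 groups, wild-type ganglia had the lowest mean for 34 of 40 members. Hemizygous tumors had the highest mean for 23 and tumorspheres for 11, and the knockout tumors for Npm1, Wdr3, Tsr1 and Rrs1. Neurospheres had the highest mean for Utp18 and homozygous ganglia for Nop10. Rrp12 and Noc2l were lowest in homozygous ganglia. These orders were not counted over all genes, so they are not shown to be particular to the members. Between neighbouring tumor groups few members passed the test, 5 for hemizygous against homozygous tumors, 0 for knockout against homozygous tumors and 3 for tumorspheres against hemizygous tumors, which does not show that the others are alike. Spread within a group was widest in neurospheres, where the median member's 2 arrays lay 0.85 apart (log2), and narrowest in tumorspheres at 0.15. In the wild-type ganglia the median range was 0.64, from 0.17 for Rrs1 to 3.0 for Ncl. Ganglia 1 and 2 were both above 3 and 4 for 22 members and both below for 6, which was not counted over all genes. The 18S probe set also set these arrays apart, and its part was not tested.

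The arrays hold several probe sets for 28 of the 40 members, which gives a further reading of the same RNA. Over 40 other probe sets that passed the filter, the direction matched that of a called member over wild-type ganglia for 37 of 39 in homozygous tumors and 38 of 40 in hemizygous ones. The exceptions were 1 probe set each of Imp4 and Ebna1bp2, with log2 differences of -0.26 and -0.51 in homozygous tumors. For tumorspheres against neurospheres 20 of 21 matched, and for neurospheres against ganglia 19 of 25, the exceptions being 1 probe set each of Nolc1, Polr1a, Utp18, Heatr1, Pes1 and Ebna1bp2.

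Other genes of the pathway, a list of 100 of which 95 were tested, mostly rose in tumors as well. This list, like the members, was chosen with earlier results of these data known, so it is no independent check. In homozygous tumors 63 rose (66.3%, against 23.1% of all genes) and 4 fell, and in hemizygous tumors 78 rose (82.1%, against 27.0%) and 2 fell. The 4 that fell in homozygous tumors were Gnl3l (log2 -1.34 ± 0.29 SE, limma adjusted p = 0.00089), Riok2 (-0.94 ± 0.28), Rpf2 (-0.65 ± 0.18) and Sbds (-0.65 ± 0.19). Gnl3l, a nucleolar GTPase related to nucleostemin, and Sbds, which helps release a factor from the large subunit, also fell in hemizygous tumors (-1.41 ± 0.29 and -0.63 ± 0.19). The largest rises in homozygous tumors were Ruvbl2 (2.42 ± 0.29), an ATPase of snoRNP assembly, Lyar (2.06 ± 0.28) and Taf1d (1.90 ± 0.21), a subunit of the polymerase I promoter factor. In hemizygous tumors they were Ruvbl2 (3.05 ± 0.29), Wdr46 (2.80 ± 0.30) and Lyar (2.69 ± 0.28). By role, 5 of 10 genes of RNA polymerase I and its factors rose in homozygous tumors, 6 of 9 of snoRNP assembly, 25 of 39 of the small subunit and 27 of 37 of the large subunit. Homozygous ganglia had 5 higher than wild type, a share of 5.26% near the 3.99% of all genes, and 0 lower (Lyar, Ddx47, Ddx55, Utp15 and Rsl1d1). Homozygous tumors against homozygous ganglia had 14 higher (14.7%, against 9.35% of all genes) and 3 lower, and hemizygous against homozygous tumors 9 higher (9.47%, against 3.46%) and 0 lower. Knockout tumors had 0 in either direction. Tumorspheres had 40 higher (42.1%, against 23.5%) and 7 lower than neurospheres. Wdr46 (2.66 ± 0.42), Pelp1 (2.50 ± 0.33) and Ddx49 (2.48 ± 0.49) rose most there, and Naf1 (-2.14 ± 0.36), Tgs1 (-1.91 ± 0.26) and Taf1a (-1.15 ± 0.36) fell most. Naf1 is an assembly factor of the box H/ACA particle and Tgs1 caps small nuclear and nucleolar RNAs.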

How the data were processed

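RNA of mouse tissue and spheres from 20 samples in 7 groups was hybridised to Affymetrix arrays. Per the labels' protocols, frozen tissue was homogenized in Isogen, and 40 ng of total RNA went through 2 cycles of amplification to biotinylated cRNA. Each deposited value is the linear intensity of a probe set. No source used here names the summarization software, and the mean after trimming 2% of the probe sets at each end is 100.0 on every array.

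Of 45101 probe sets, 34945 had a single gene symbol (34741 updated through gene identifiers). The rest, 64 controls, 932 with several symbols and 9160 with none, were left out. A gene was represented by the probe set with the largest average log2(intensity + 16), and 15132 of 18193 genes exceeded the 40th percentile of their array on at least 2 arrays. Means of the 7 groups were fitted over all 20 arrays with limma 3.58.1 (R 4.3.3) and eBayes (13 residual degrees of freedom), with 2-sided p-values, Benjamini-Hochberg adjustment over all genes tested and a threshold of 0.05. The code was tested on simulated data. Alternatives changed the scaling (quantile, median), the pseudocount (1, 64), the filter, the probe set rule, the arrays that set the spread, the variance trend, a replicate block and the wild-type ganglia used, and left out each array in turn. The number of arrays limits the precision. The members and gene lists were chosen with earlier results of these data known. All members could be named, and of the other pathway genes the 3 highest and 3 lowest differences among those that passed a comparison.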

Additional observations from a re-analysis of the deposited data

Results flagged for a closer look

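Among 120 groups of 4 arrays (40 members in wild-type ganglia, homozygous tumors and hemizygous tumors), 1 held an array far from the rest by Dixon's criterion: Heatr1 in wild-type ganglion 2 read 134, and the other ganglia read 103 to 105. Chance alone sets apart about 1 in 20 such groups.

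For 16 members the difference between hemizygous tumors and wild-type ganglia departed from that between tumorspheres and neurospheres (limma contrast of the 4 groups, adjusted p under 0.05). The gap on the log2 scale was 2.98 for Ddx21, 2.73 for Utp18, 2.43 for Noc3l, 2.22 for Dkc1, 1.99 for Polr1c and 1.99 for Wdr43. Polr1a had 1.90, Fbl 1.83, Gar1 1.63, Noc2l 1.57, Heatr1 1.49, Rrs1 1.39, Pes1 1.16 and Utp20 1.15. The gap was -1.74 for Imp3 and -1.25 for Nop10, which means a larger difference in the spheres. Between spheres, second probe sets of Ddx21, Utp18 and Noc3l did not follow those used here, as given above. Between neurospheres and wild-type ganglia, other probe sets of Polr1a, Utp18, Heatr1 and Pes1 went the other way. The gaps were not refitted without single arrays. Summed neural stem and radial glia markers (8 genes) were 7938 to 9721 in neurospheres, 970.2 to 1492 in wild-type ganglia and 184.7 to 185.3 in tumorspheres, and their part in the gaps was not tested.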

How the results depend on the processing

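The count of members past the threshold stayed within 1.5 times of the reported 38 and 40 for homozygous and hemizygous tumors against wild-type ganglia under every alternative run, at 32 to 39 and 34 to 40, and at 0 for the Mdk knockout. With only the compared arrays setting the spread, it was 0 (in place of 6) for homozygous against wild-type ganglia, 26 (16) for homozygous tumors against homozygous ganglia, 17 (5) for hemizygous against homozygous tumors, 13 (22) for tumorspheres against neurospheres and 6 (22) for neurospheres against ganglia. Hemizygous against homozygous tumors gave 2 with a pseudocount of 1 and 10 with 64. Homozygous against wild-type ganglia gave 3 when wild-type ganglia 1 and 2 were the controls, and 23 when 3 and 4 were. Without the arrays with Acta1 above 100, chosen after seeing the data, these counts were 15 for homozygous against wild-type ganglia, 8 for homozygous tumors against homozygous ganglia and 3 for hemizygous against homozygous tumors. On the arrays with 18S above 2000, also chosen after seeing the data, hemizygous against homozygous tumors gave 10 (1163 of all genes higher, 789 lower). On the other arrays this comparison gave 0 (22 of all genes higher, 36 lower), and the median member difference was 0.57 and 0.52. For tumorspheres against tumors only tumorsphere 2 was above 2000, and the median member difference was -0.19 there and -0.17 on the other arrays. The cause was not tested. Apart from the 18S split, member counts under alternative fits stand without the share of all genes throughout. Their shifts are therefore not shown to be particular to the members.

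Leaving out each array in turn gave 35 to 39 for homozygous tumors and 39 to 40 for hemizygous tumors against wild-type ganglia, 0 to 14 for homozygous ganglia, 2 to 13 for homozygous tumors against homozygous ganglia, 2 to 5 for hemizygous against homozygous tumors, 0 for the Mdk knockout, 13 to 28 for tumorspheres against neurospheres, 0 to 3 for tumorspheres against tumors and 6 to 26 for neurospheres against ganglia. A group left with 1 array is assumed to vary like the others. Polr1a in tumorspheres against neurospheres was -1.27 without neurosphere 1 and 0.96 without neurosphere 2, and Nop16 in neurospheres against ganglia was 1.11 and -1.0 (log2). The labels do not say whether replicate numbers pair the samples. In deviations from group means, 7 of 48 same-numbered pairs of arrays correlated above 0.1, against 32 of 120 others. In a group of 2 arrays these deviations mirror each other, so the counts cannot settle whether samples are paired. With a replicate block the count was 2 for homozygous ganglia, 10 for homozygous tumors against homozygous ganglia and 1 for tumorspheres against tumors, and it changed no other count by over 1.5 times. Dim signal limits the folds of Rrp9, Ppan, Noc3l and Polr1a, which read below the added 16 on at least 1 array.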
